A study of Mus musculus with 89 samples.

Results

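The collagen genes of mouse embryonic stem (ES) cells were followed through the loss of the orphan nuclear receptors Esrrb and Nr5a2 in 2 culture media. Every gene with a symbol of the form Col, number, a, number was taken, which gave 44 of the 54146 gene records in the expression tables. They comprised 8 collagens of basement membranes (Col4a1 to Col4a6, Col15a1 and Col18a1), 11 fibrillar collagens and 25 others, which are fibril-associated, filament-forming, anchoring, short-chain or membrane-bound. Messenger RNA was measured by RNA-seq in 20 libraries, and the 69 ChIP-seq samples of the series were not analysed here. All cells derived from EKOiE, an ES cell line whose endogenous Esrrb is knocked out and which carries an Esrrb transgene switched on by doxycycline (Dox). In +E+N cells the transgene was maintained with 1 µg/ml Dox, and in −E cells Dox was withdrawn for 2 days. The −N cells were the EKOiE NrKO line, in which the DNA-binding domain of Nr5a2 is also disrupted, kept in Dox, and −E−N cells were the NrKO line after 2 days without Dox. Each state was profiled in medium with 10% foetal calf serum and LIF (FCS/LIF, n = 2 libraries per state) and in the inhibitors PD0325901 (1 µM) and CHIR99021 (3 µM) with LIF (2i/LIF, n = 3 per state), always on gelatine without feeder cells. Loss of Nr5a2 and passage into the NrKO line cannot be told apart, nor can the medium and the batch in which its libraries were made. The study describes the replicates of both media as independent experiments.

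Collagens are secreted proteins in which chains wind into a rope-like helix. Type IV chains, led by Col4a1 with Col4a2, join into the sheet-like network of every basement membrane, where type XVIII collagen (Col18a1) also sits as a heparan sulphate proteoglycan. Fibrillar collagens such as types I, II, III and V pack into the fibrils of skin, bone and cartilage, and fibril-associated collagens decorate their surface. In the early mouse embryo, type IV collagen and laminin are laid down in the first basement membranes by the endoderm lineages and beneath the epiblast.

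The FCS/LIF libraries held between 36514172 and 45443379 gene counts and the 2i/LIF libraries between 26653035 and 32526534. Esrrb RNA averaged 206 ± 60.8 TPM (the transcript share scaled to a fixed total, SD, n = 2) in +E+N and 18.0 ± 1.69 in −E−N cells in FCS/LIF, and 237 ± 45.0 and 43.2 ± 10.5 (n = 3) in 2i/LIF. The disruption of Nr5a2 cannot be checked from its gene total. That total was itself lower in −E than in +E+N cells (log2 fold change −0.98 in FCS/LIF, called, and −0.59 in 2i/LIF, not called). At the RNA level, the −E state thus also had less Nr5a2. All 7 ES cell markers examined were at 1 TPM or more in every group, and their summed TPM went from between 2868 and 2932 in +E+N to between 1584 and 1815 in −E−N cells in FCS/LIF. Summed TPM of 12 markers of primitive endoderm and its derivatives was 35.1 to 39.9 in +E+N and 55.7 to 64.2 in −E−N cells in FCS/LIF. In 2i/LIF it was 4.46 to 5.72 and 8.13 to 11.1. Single markers were mixed in direction. Of the 10 tested in FCS/LIF, 5 had estimates above 0 and 5 below, and only Dab2 was called, higher. Of the 6 tested in 2i/LIF, 3 were above 0 and 3 below, with 2 called higher and 1 lower. Ttr, a defining marker of visceral endoderm, was at 0 in every group except −E−N in FCS/LIF. Summed TPM of 10 fibroblast and mesenchyme markers was 58.8 to 61.7 in +E+N and 429 to 452 in −E−N cells in FCS/LIF, mostly from the smooth muscle genes Acta2 and Tagln, against 3.13 to 5.82 and 4.56 to 8.63 in 2i/LIF. In these bulk samples, fewer cells of a type and less RNA per cell cannot be told apart.

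Most collagen genes were silent or nearly so. Of the 44 members, 28 stayed under a group mean of 1 TPM everywhere, 7 of them under 0.1 TPM, and 11 peaked between 1 and 5 TPM. Only 5 members reached 5 TPM in any of the 8 groups, namely Col18a1, Col4a1, Col4a2, Col2a1 and Col9a2. TPM is scaled by transcript length, so these levels may be compared between genes.

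**Figure D1:**
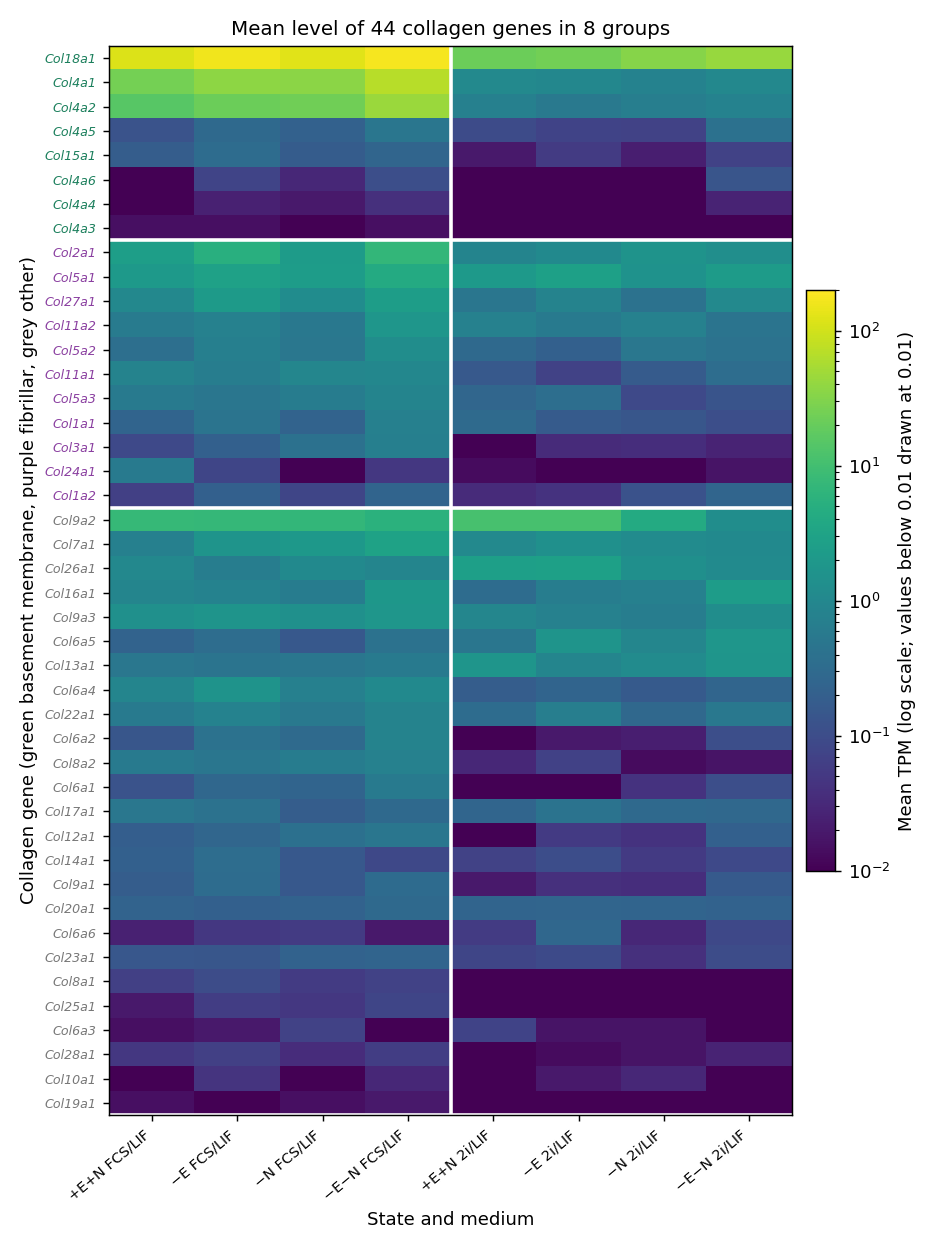
Mean expression of the 44 collagen genes (rows, arranged by class) in the 8 groups of state and medium (columns), as TPM on a logarithmic colour scale from dark (low, values below 0.01 drawn at 0.01) to yellow (high), with n = 2 libraries in FCS/LIF and n = 3 in 2i/LIF. Col18a1 is the brightest cell of every column, and Col4a1 and Col4a2 are bright green in FCS/LIF and dark teal in 2i/LIF.

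Col18a1, whose C-terminal fragment is endostatin, was the highest collagen in every group. Its mean was 117.5 TPM in +E+N cells in FCS/LIF, 63.9% of all collagen TPM there, and 21.8 TPM or 44.5% in 2i/LIF. Col4a1, Col4a2 and the cartilage gene Col9a2 followed in +E+N cells in FCS/LIF. In 2i/LIF both type IV chains were at about the level of 1 TPM, and Col9a2 took second place in +E+N cells with 7.19, 14.3 and 12.1 TPM.

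Col4a1 and Col4a2 moved together, and they share a start site region. In the GENCODE annotation of GRCm38 (mm10), Col4a1 lies on the minus strand of chr8:11198423-11312826 and Col4a2 on the plus strand of chr8:11312805-11449287, so that the first exons of this head-to-head pair overlap by 22 bases. The 78 bases around this overlap are shown because they hold both starts, with the 22 bases present in both transcripts in capitals (plus strand, chr8:11312777-11312854).
Col4a1/Col4a2 start region: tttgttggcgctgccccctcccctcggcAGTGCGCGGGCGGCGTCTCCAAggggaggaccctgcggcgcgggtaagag
The promoter windows of both genes, from 250 bases before to 50 after the start, were GC-rich, at 74.0% for Col4a1 and 73.7% for Col4a2, against a median of 52.7% over 32851 RefSeq windows. They held 37 and 33 CpG dinucleotides against a median of 7. The ratio of Col4a1 to Col4a2 TPM stayed between 1.49 and 1.75 in all 8 FCS/LIF libraries. In 2i/LIF, where both genes were near 1 TPM, the ratio ranged from 0.810 to 2.40. The other type IV genes are also paired head to head, Col4a3 with Col4a4 on chromosome 1 at a distance of 71 bp and Col4a5 with Col4a6 on the X chromosome at 1308 bp.

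The first comparison asks how the medium relates to collagen expression before either receptor is lost. In +E+N cells, called collagens of every class were higher in FCS/LIF than in 2i/LIF, and Col4a1, Col4a2 and Col18a1 showed the widest gaps in TPM. A gene was called when edgeR's quasi-likelihood test gave a Benjamini-Hochberg adjusted p under 0.01 over all genes tested and a fold change above 1.5. Of the 35 collagens with enough counts to test, 18 (51.4%) were called, 17 higher and 1 lower in FCS/LIF, where 34.7% of all tested genes were called and 17.5% were higher. By class, 4 of 6 basement membrane, 5 of 10 fibrillar and 9 of 19 other collagens were called. Nr5a2 (log2 fold change −0.90) and Esrrb were themselves called in this comparison, both lower in FCS/LIF. Their part in these differences was not tested. Testing needed 20 counts in each replicate of any 1 of the 8 groups. Within +E+N cells, 24 of the 44 members reached this in FCS/LIF and 18 in 2i/LIF. Col3a1 and Col6a2 reached it in FCS/LIF only in receptor-depleted states. Members that passed only through FCS/LIF were favoured towards a higher call there, so these shares carry that selection.

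Col4a1 stood at 21.0 and 29.8 TPM in the +E+N libraries in FCS/LIF and at 0.96, 0.84 and 1.40 TPM in 2i/LIF. Its partner Col4a2 stood at 12 and 18.1 TPM against 0.40, 0.60 and 1.22 TPM. Every FCS/LIF library was far above every 2i/LIF library for both chains. The log2 fold change was 5.01 ± 0.19 (SE) for Col4a1 (adjusted p = 3.50e-12, edgeR quasi-likelihood) and 4.85 ± 0.21 for Col4a2 (adjusted p = 1.44e-11). Col18a1 followed the same direction with a smaller change, from 112 and 123 TPM in FCS/LIF to 16.7, 20.6 and 28.1 TPM in 2i/LIF (log2 fold change 2.39 ± 0.15, adjusted p = 9.06e-10).

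Outside the basement membrane class, the fibrillar genes Col2a1 (log2 fold change 1.59) and Col3a1 were higher in FCS/LIF. Col3a1 had 32 summed counts against 1, a depth-scaled ratio of 33.9 with an exact 95% interval of 5.67 to 1381 that covers counting error only. Col12a1, a fibril-associated collagen, had 85 against 1, a ratio of 90.1 (15.7 to 3600). Col6a2, a chain of beaded filaments, had 13 and 25 counts in FCS/LIF and none in the 3 libraries in 2i/LIF, which makes it at least 13.4-fold higher when 3 counts over the group are taken as the floor. Col13a1, a membrane-bound collagen, was the 1 called member lower in FCS/LIF (log2 fold change −1.84 ± 0.34). Beside these differences, 9 of the 10 endoderm markers tested were also called higher in FCS/LIF. Of the 7 fibroblast and mesenchyme markers tested, 3 were called higher and 1 lower. The filter favoured such calls too, as 10 endoderm markers were tested within FCS/LIF and 6 within 2i/LIF. The part of both marker sets in the result was not tested. The gap between media recurred in the receptor-depleted states, where 21 of 35 collagens were called in −E cells (38.8% of all genes), 17 of 35 in −N cells (31.6%) and 21 of 35 in −E−N cells (35.0%). These counts carry the same selection by the filter. The Col4a1 difference was 5.27, 5.75 and 6.17 on the log2 scale in these 3 states.

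The second set of comparisons asks what changes when the receptors are lost singly and together. In FCS/LIF, members of every class were called higher after combined loss, and 1 of the other collagens was called lower. Of the 34 collagens tested, 16 (47.1%) were called between −E−N and +E+N cells, 15 higher and 1 lower, against 18.8% of all 15636 genes tested, 12.4% higher and 6.4% lower. The median log2 fold change was 0.77 for these 34 members and 0 over all genes. By class, 4 of 6 basement membrane (median 1.39), 7 of 10 fibrillar (median 1.24) and 5 of 18 other collagens (median 0.37) were called.

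These counts and medians describe only members that passed the filter on low counts, and a member that passed through the state in which it is high had to differ. Of the 44 members, 24 passed it in +E+N cells in FCS/LIF, 10 passed only through a receptor-depleted state and 10 were not tested. The basement membrane genes Col4a5, Col4a6 and Col15a1 were among those that passed only through a depleted state. Among the 24 that passed in +E+N cells, 10 were called, 9 higher and 1 lower, and the median log2 fold change was 0.48. All comparisons against +E+N cells within a medium share the same control libraries.

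The basement membrane genes gave the highest levels. Col4a1 rose from 21.0 and 29.8 TPM in +E+N to 60.4 and 80.4 TPM in −E−N libraries, with −E at 33.7 and 40.3 and −N at 32.8 and 39.5 TPM. Col4a2 went from 12 and 18.1 to 39.0 and 51.7 TPM, with −E at 19.4 and 24.6 and −N at 19.7 and 26.5 TPM. For both chains the −E−N libraries lay above all others, the +E+N libraries lay below all others, and the single losses overlapped each other in between. The log2 fold changes of −E−N against +E+N were 1.31 ± 0.18 (adjusted p = 0.000541) and 1.47 ± 0.20 (adjusted p = 0.000438, both by edgeR's quasi-likelihood test).

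The minor type IV chains Col4a5 and Col4a6, which form the specialised membranes of kidney and smooth muscle, started lower. Both passed the filter only through a receptor-depleted state, Col4a6 only through −E−N cells, so the filter favoured a higher call. Col4a5 had 17 and 28 counts in +E+N and 68 and 82 in −E−N libraries (log2 fold change 1.78 ± 0.28, adjusted p = 0.000986, edgeR). Col4a6 had 2 and 2 counts in +E+N libraries, 13 and 19 after loss of Esrrb alone, 4 and 8 after loss of Nr5a2 alone and 20 and 25 in −E−N libraries (log2 fold change 3.45 ± 0.52, adjusted p = 0.000761). The libraries without Esrrb were thus above those with it for Col4a6, at counts too low for a precise fold. The Col4a5 call was lost without −E−N replicate 2 (log2 fold change 1.68, adjusted p = 0.0102). Col18a1 stood at 112 and 123 TPM in +E+N and at 182 and 171 TPM in −E−N libraries, a log2 difference of 0.46 ± 0.05 (adjusted p = 0.000119) that lay under the fold limit and was not called.

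**Figure D2:**
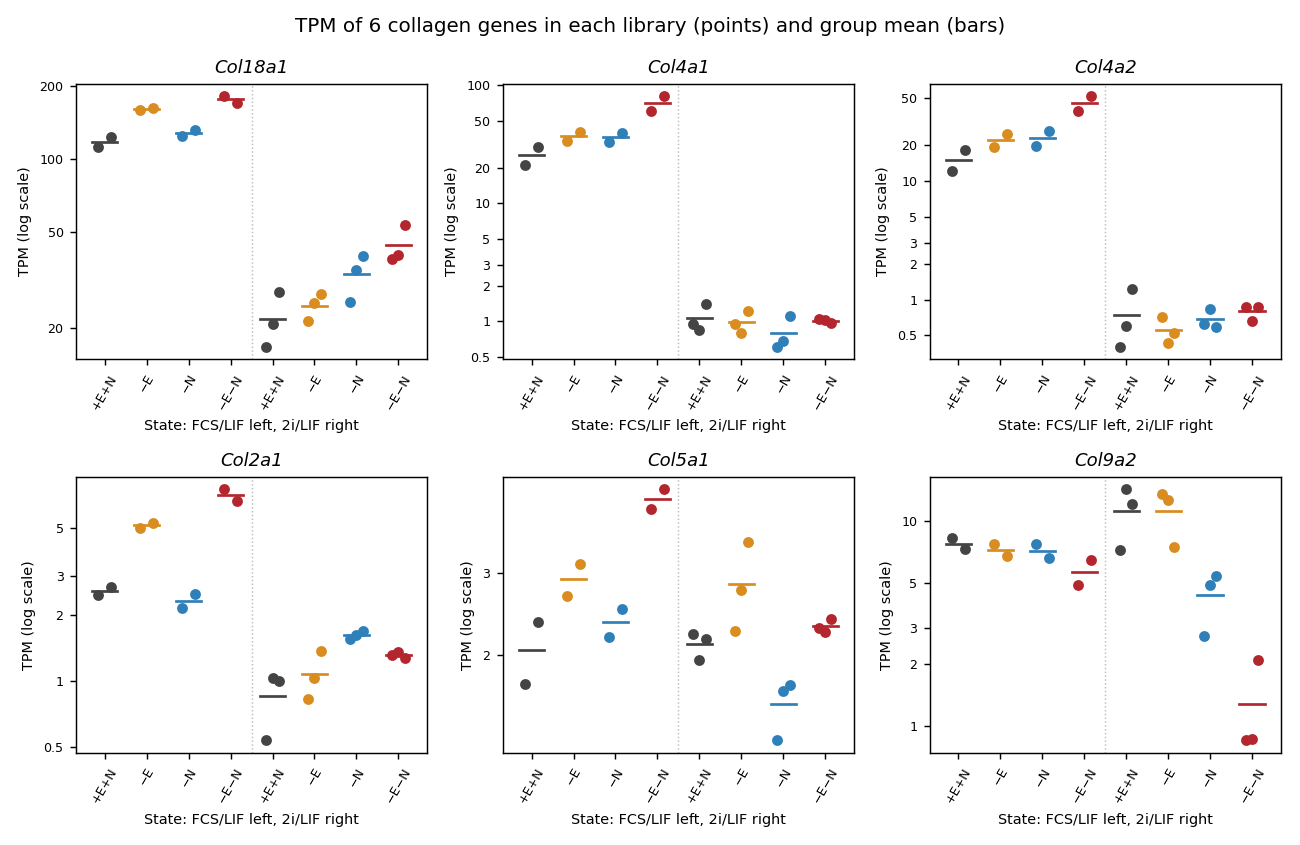
TPM (log axis) of 6 collagen genes in each library, with FCS/LIF to the left and 2i/LIF to the right of the dotted line in each panel; points are libraries and bars are group means. Col4a1 and Col4a2 are highest in −E−N cells in FCS/LIF and show no such step in 2i/LIF, whereas Col9a2 is lowest in −E−N cells in 2i/LIF.

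Of the 11 fibrillar collagens, 10 were tested in −E−N cells in FCS/LIF and 7 rose, of which Col1a2 and Col3a1 passed the filter only through a receptor-depleted state. Col5a3, Col11a1 and Col11a2 were not called, with log2 differences of 0.47, 0.35 and 0.34. Col2a1, the main chain of cartilage fibrils, had 2.47 and 2.68 TPM in +E+N libraries, 4.98 and 5.26 TPM without Esrrb, 2.15 and 2.48 TPM without Nr5a2 and 7.45 and 6.63 TPM without both. Its levels thus stepped up in both states without Esrrb, and −N overlapped +E+N. The log2 fold change in −E−N cells was 1.26 ± 0.10 (adjusted p = 2.34e-05, edgeR).

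The chains of types I, III and V, which assemble together in connective tissue fibrils, were lower in level. Col5a1 went from 1.74 and 2.36 TPM in +E+N to 4.10 and 4.51 TPM in −E−N libraries (log2 fold change 0.92 ± 0.14). Col5a2 went from 93 and 76 to 263 and 241 counts (1.61 ± 0.24) and Col1a1 from 53 and 44 to 138 and 123 counts (1.46 ± 0.22). The +E+N and −E−N libraries did not overlap for any of these 3 genes, and the adjusted p-values by edgeR were 0.00076, 0.000689 and 0.000724. The −N libraries of Col1a1, at 47 and 50 counts, lay within the +E+N range. Col27a1, a fibrillar collagen of developing cartilage, rose from 0.70 and 1.31 TPM to 2.62 and 2.43 TPM (1.23 ± 0.21), with both −E libraries at 2.20 TPM.

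Col1a2 and Col3a1 rested on few counts. Col1a2 had 10 and 14 counts in +E+N and 34 and 40 in −E−N libraries (log2 fold change 1.66 ± 0.36, adjusted p = 0.00553, edgeR), and Col3a1 had 10 and 22 against 60 and 99 (2.35 ± 0.45, adjusted p = 0.00278). For both genes every −E−N library was above every +E+N library, although 1 −N library reached 61 counts of Col3a1, and both calls depended on single libraries. Col1a2 lost its call without any 1 of the +E+N, −E or −E−N libraries (adjusted p 0.0112 to 0.0356), Col3a1 without +E+N replicate 1 or −E−N replicate 2 (0.0187 to 0.0254) and Col27a1 without −E−N replicate 1 (log2 fold change 1.09, adjusted p = 0.0142, edgeR). Fibroblast and mesenchyme markers moved with these genes, 4 of the 7 tested being called in −E−N cells (Acta2, Dcn, Pdgfrb and Tagln). Their part in the result was not tested.

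Among the other collagens, the direction was mixed. Of the 6 type VI genes, whose chains form beaded filaments in the matrix around cells, Col6a1 and Col6a2 rose, both having passed the filter only through a depleted state. Col6a4 and Col6a5 were tested and not called, with log2 differences of 0.01 and 0.49, and Col6a3 and Col6a6 were not tested. Col6a1 went from 20 and 15 counts in +E+N to 75 and 59 in −E−N libraries (log2 fold change 1.97 ± 0.35) and Col6a2 from 13 and 25 to 84 and 112 counts (2.41 ± 0.36). Col7a1, the anchoring fibril collagen of skin, rose from 127 and 200 to 329 and 334 counts (1.07 ± 0.16). The fibril-associated Col16a1 had 45 and 64 counts in +E+N and 105 and 123 in −E−N libraries (1.11 ± 0.23). Col6a1, Col6a2, Col7a1 and Col16a1 each had every −E−N library above every +E+N library. The Col16a1 call was lost without any 1 of these 4 libraries (adjusted p up to 0.0359 by edgeR) and the Col6a1 call without +E+N replicate 2 or −E−N replicate 1 (0.0135 to 0.0155). Col12a1, also fibril-associated, had 35 and 50 against 73 and 117 counts and was not called (1.20 ± 0.36, adjusted p = 0.0221).

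Col9a2, a chain of the type IX collagen that coats cartilage fibrils, was the 1 called collagen that fell. It had 549 and 538 counts in +E+N libraries, 423 and 361 without Esrrb, 491 and 430 without Nr5a2 and 237 and 275 without both, and decreased by 1.05 ± 0.15 on the log2 scale (adjusted p = 0.000615, edgeR). Both −E−N libraries were below all others. The drop was shallower in TPM, from 8.23 and 7.28 to 4.89 and 6.43, and the result was weaker with limma on log2(TPM + 1). TPM also takes in the transcript lengths estimated for each library, whose part in this gap was not tested.

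**Figure D3:**
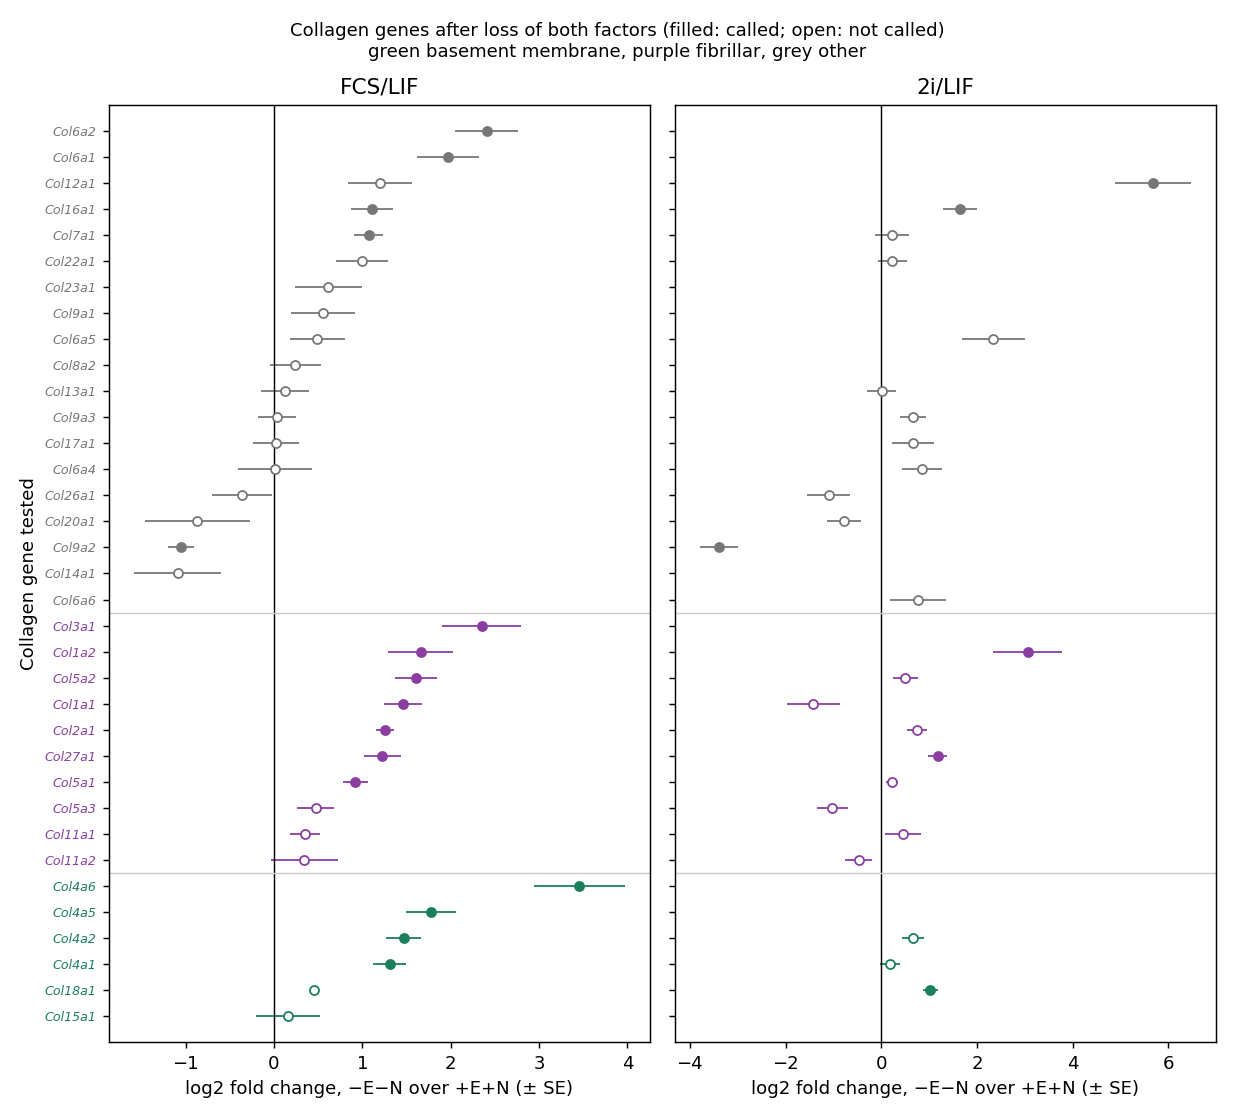
Log2 fold change of −E−N against +E+N (horizontal axis, bars show 1 SE) for the tested collagens, coloured by class and with filled points for called members, in FCS/LIF (left, 34 genes) and 2i/LIF (right, 25 genes). Most points in FCS/LIF lie to the right of 0 with Col9a2 called to the left, and in 2i/LIF Col12a1 lies farthest to the right and Col9a2 farthest to the left.

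After single losses in FCS/LIF, 2 collagens were called in −E cells and none in −N cells. In −E cells, 2 of 34 (5.88%) were called against 5.76% of all genes tested. An unadjusted p under 0.05 was given by edgeR for 15 of the 34 and for 5275 of all 15636 genes. The median log2 fold change was 0.43 (0.40 for the 24 that passed the filter in +E+N cells). The 2 called members were Col2a1 (log2 fold change 0.97 ± 0.10, adjusted p = 0.000299, edgeR) and Col4a6 (2.86 ± 0.55, adjusted p = 0.00764), both higher. The Col4a6 call was lost without any 1 of the +E+N, −E or −E−N libraries (adjusted p 0.0151 to 0.0582). In −N cells 0 of 34 were called by edgeR or by DESeq2, where 0.173% of all genes were called by edgeR. By edgeR, 8 of the 34 and 2550 of all 15636 genes had an unadjusted p under 0.05.

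With Nr5a2 already lost, withdrawal of Esrrb was followed by 11 called collagens of 34 (32.4%) between −E−N and −N cells in FCS/LIF, against 10.1% of all genes. Only Col2a1 kept its call without each library in turn, the count ranging from 2 to 11. The interaction of both losses tests whether the combined change differs from the sum of the single changes on the log2 scale. It called 0 collagens by edgeR and 0 by DESeq2 (0.032% of all genes were called by edgeR). An unadjusted p under 0.05 was given by edgeR for 5 collagens and for 1384 of all 15636 genes.

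In −E−N cells in 2i/LIF, Col18a1, Col27a1, Col1a2, Col12a1 and Col16a1 rose, Col9a2 fell, and Col4a1 and Col4a2 stayed near 1 TPM. Of 25 collagens tested in −E−N against +E+N cells, 6 (24.0%) were called, 5 higher and 1 lower, against 18.6% of 14355 genes tested, 9.06% higher and 9.56% lower. The median log2 fold change of the 25 was 0.50 against 0.01 over all genes. By class, 1 of 3 basement membrane, 2 of 9 fibrillar and 3 of 13 other collagens were called. Of the 44 members, 18 passed the filter in +E+N cells, of which 3 were called (2 higher and 1 lower) with a median log2 fold change of 0.23. The share called among these 18 was no higher than that of all genes. The remaining 7 passed only through a depleted state, 6 of them only through −E−N cells, among them Col1a2, Col12a1 and Col16a1.

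Col18a1 had 16.7, 20.6 and 28.1 TPM in +E+N and 38.6, 40.1 and 53.0 TPM in −E−N libraries in 2i/LIF. The intermediate states gave 21.2, 25.2 and 27.7 TPM in −E and 25.6, 34.5 and 39.8 TPM in −N libraries. Its −E−N libraries were all above the +E+N and −E libraries but overlapped −N, and the log2 fold change was 1.03 ± 0.16 (adjusted p = 0.00029, edgeR). Col4a1 had 0.96, 0.84 and 1.40 TPM in +E+N against 1.05, 1.02 and 0.98 TPM in −E−N libraries (0.18 ± 0.21, adjusted p = 0.51), and Col4a2 had a log2 difference of 0.66 ± 0.24 (adjusted p = 0.0409), so neither was called. Replicate 3 of −E−N carried most counts of the remaining type IV chains, with 115 for Col4a5 against 10 and 25 in its fellows and 53 for Col4a6 against 2 and 4. Neither of these genes passed the filter in 2i/LIF, and summed endoderm markers in these libraries were 8.13, 9.42 and 11.1 TPM in replicates 1, 2 and 3.

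Among the fibril-associated collagens in 2i/LIF, Col12a1 had 0, 0 and 1 counts in +E+N libraries, 3, 5 and 2 without Esrrb, 12, 5 and 2 without Nr5a2 and 26, 22 and 23 without both. The ratio of 71 to 1 summed counts was 69.8 after scaling by depth, with an exact 95% interval of 12.1 to 2794 that covers counting error only, and the adjusted p by edgeR was 0.00012. Col16a1 rose from 15, 20 and 24 to 68, 45 and 76 counts (log2 fold change 1.65 ± 0.35, adjusted p = 0.00254). For both genes every −E−N library was above every library of the other states. Col9a2 went the opposite way, from 7.19, 14.3 and 12.1 TPM in +E+N to 2.73, 4.88 and 5.39 in −N and 0.85, 0.86 and 2.10 TPM in −E−N libraries, and decreased by 3.39 ± 0.40 on the log2 scale (adjusted p = 3.11e-05, edgeR). Its −E libraries, at 13.6, 12.6 and 7.49 TPM, overlapped the controls.

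Col27a1 and Col1a2 were the 2 fibrillar collagens called in 2i/LIF. Col27a1 rose from 66, 71 and 53 to 149, 137 and 149 counts (log2 fold change 1.18 ± 0.20, adjusted p = 0.000456, edgeR). Col1a2 had 8, 1 and 1 counts in +E+N and 29, 22 and 35 in −E−N libraries (3.06 ± 0.72, adjusted p = 0.00454). Its partner in type I collagen, Col1a1, had 31, 28 and 71 against 13, 10 and 26 counts and was not called (−1.42 ± 0.55, adjusted p = 0.0549). Col2a1 had 0.54, 1.04 and 1.00 TPM in +E+N and 1.32, 1.36 and 1.27 TPM in −E−N libraries, which did not overlap, and was not called by edgeR (0.75 ± 0.21, adjusted p = 0.0133), although it was called by DESeq2 and under the replicate block. The Col1a2 call was lost without +E+N replicate 2 or 3 or −E−N replicate 1 or 3 (adjusted p 0.0108 to 0.0228), and that of Col16a1 without +E+N replicate 1 or −E−N replicate 3 (0.0105 to 0.0122, edgeR).

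Between media, 4 collagens were called in −E−N cells in both (Col1a2, Col9a2, Col16a1 and Col27a1), which is 25.0% of the 16 called in FCS/LIF and 66.7% of the 6 called in 2i/LIF. Over all genes, 1047 were called in both media, 35.7% of the 2934 called in FCS/LIF and 39.2% of the 2672 called in 2i/LIF. Of the 4 shared collagens, Col1a2 and Col16a1 passed the filter in 2i/LIF only through −E−N cells. Col1a2 passed in FCS/LIF only through a receptor-depleted state, so the filter favoured these calls. Col9a2 and Col27a1 passed in +E+N cells of both media. The difference of the −E−N response between media was itself tested over 35 members and called for 4 (11.4%), against 13.2% of all genes, so its share was no higher than the background. It was 1.16 ± 0.27 on the log2 scale for Col4a1 (adjusted p = 0.00501, edgeR), which rose in FCS/LIF alone, and 2.91 ± 0.69 for Col1a1 (adjusted p = 0.00556). For Col9a2 it was 2.37 ± 0.50 (adjusted p = 0.00249), the drop being deeper in 2i/LIF, and for Col12a1 −4.51 ± 0.99 (adjusted p = 0.00337), a direction that turned to 0.041 with limma on log2(TPM + 1). None of these 4 calls was kept without each of the 20 libraries in turn. The corresponding difference was called by edgeR for 0 of 35 collagens in −E cells and 0 of 35 in −N cells, where 1.06% and 0.743% of all genes were called. An unadjusted p under 0.05 was given for 4 collagens and 2834 of all 16147 genes in −E cells. In −N cells it was given for 8 collagens and 2476 of all genes.

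Single losses in 2i/LIF also left most collagens without a call. In −E cells edgeR called 0 of 25, against 1.55% of all genes, and DESeq2 called 1. By edgeR, 9 of the 25 and 2917 of all 14355 genes had an unadjusted p under 0.05. In −N cells 1 of 25 was called, Col2a1, which had 0.54, 1.04 and 1.00 TPM in +E+N and 1.56, 1.62 and 1.69 TPM in −N libraries (log2 fold change 1.02 ± 0.21, adjusted p = 0.00882, edgeR), against 3.65% of all genes, and this call was lost without 9 of the 12 libraries. Same-numbered libraries of these states deviated together, so the replicate number was also fitted as a block. With this replicate block, 2 collagens were called in −E cells (Col6a5 and Col6a6, both higher, 4.15% of all genes). In −N cells 6 were called under the block, namely Col2a1, Col5a2, Col6a5 and Col18a1 higher (Col18a1 0.64, adjusted p = 3.23e-05, edgeR) and Col5a3 and Col9a2 lower (Col9a2 −1.38, adjusted p = 0.00461), against 7.77% of all genes.

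From −N to −E−N cells in 2i/LIF, 3 of 25 collagens were called (Col16a1 1.65, Col27a1 1.09 and Col9a2 −2.02 on the log2 scale), against 6.76% of all genes, and none was kept without each library in turn. The replicate block added Col6a5, Col9a3 and Col12a1, all higher, for a total of 6 (11.3% of all genes). The interaction of both losses called 0 of 25 by edgeR (0.307% of all genes) and 1 by DESeq2. With edgeR, 7 of the 25 and 1962 of all 14355 genes had an unadjusted p under 0.05.

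The classes were also compared by summed TPM. Basement membrane collagens summed to 158 ± 19.0, 221 ± 11.3, 188 ± 15.2 and 293 ± 15.3 TPM in the order +E+N, −E, −N, −E−N in FCS/LIF (SD, n = 2), and to 23.7 ± 6.59, 26.4 ± 3.26, 34.9 ± 7.47 and 46.3 ± 8.59 in 2i/LIF (n = 3). They made up between 86.1% and 87.7% of collagen TPM in every state in FCS/LIF. In 2i/LIF their share was 48.4% in +E+N and in −E cells, 66.7% in −N and 70.4% in −E−N cells.

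Fibrillar collagens summed to 8.99 ± 1.95, 13.8 ± 0.990, 9.24 ± 0.537 and 20.6 ± 2.32 TPM in +E+N, −E, −N and −E−N cells in FCS/LIF, and stayed between 5.28 ± 0.386 and 6.44 ± 0.0265 TPM in 2i/LIF. The other collagens summed to 16.6 ± 1.05 TPM in +E+N and 20.4 ± 1.32 in −E−N cells in FCS/LIF and went the opposite way in 2i/LIF, from 19.9 ± 5.31 to 13.0 ± 2.60 TPM, with 1 of the 3 +E+N libraries inside the range of the −E−N libraries. Col9a2 was their highest member in +E+N cells. As ratios of −E−N to +E+N, basement membrane, fibrillar and other collagens gave 1.85, 2.29 and 1.23 in FCS/LIF and 1.95, 1.22 and 0.651 in 2i/LIF. The class sums rest on a few genes each, and no test was made on them.

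**Figure D4:**
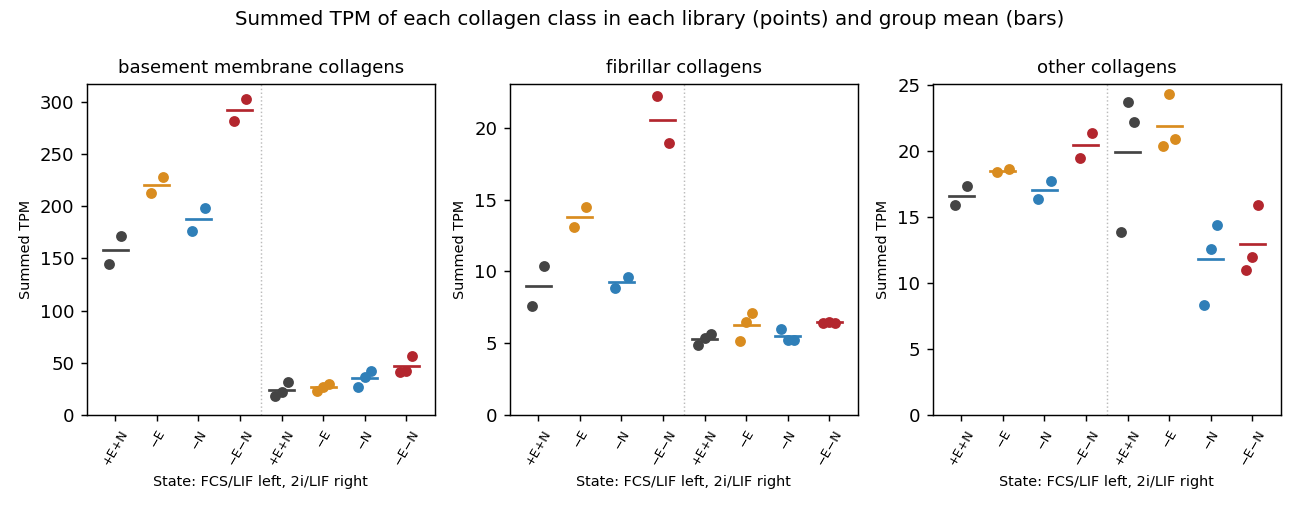
Summed TPM of the basement membrane, fibrillar and other collagens (panels) in each library (points), with the group mean as a short line and axes that start at 0, for the 4 states in FCS/LIF (n = 2, left of the dotted line) and 2i/LIF (n = 3, right). Basement membrane collagens average 293 TPM in −E−N cells in FCS/LIF, and in 2i/LIF the group means of the other collagens are lower in −N and −E−N than in +E+N cells, with overlapping libraries.

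Promoter windows from RefSeq (GRCm38.p6) were found for 35 of the 44 collagen genes, 38 windows in all. AAGGTCA, the core sequence read by both receptors, or its complement TGACCTT stood in 5 of them (13.2%), those of Col7a1, Col9a1, Col11a1, Col23a1 and Col24a1, against 4.72% of all 32851 windows. Of these 5 genes, Col7a1 was called in −E−N cells. The variant AAGGCCA or TGGCCTT holds the C for which the study reports a more marked preference of Nr5a2. It stood in 0 of 38 collagen windows and in 6.20% of all windows. TATAAA or TTTATA stood in 5 collagen windows (13.2%) and 13.6% of all windows. Both strands were searched, none of the motifs contains another, and a match describes the letters only. For Col9a2 the RefSeq start lies downstream of the GENCODE gene start at 121039385, so most of its window lies inside the annotated gene. The windows of Col7a1, which rose in −E−N cells in FCS/LIF and holds a match 140 bases before the start (in capitals), and of Col9a2, which fell in both media and holds no match, are shown on the plus strand, on which both genes lie (chr9:108953336-108953635 and chr4:121039316-121039615).
Col7a1 promoter: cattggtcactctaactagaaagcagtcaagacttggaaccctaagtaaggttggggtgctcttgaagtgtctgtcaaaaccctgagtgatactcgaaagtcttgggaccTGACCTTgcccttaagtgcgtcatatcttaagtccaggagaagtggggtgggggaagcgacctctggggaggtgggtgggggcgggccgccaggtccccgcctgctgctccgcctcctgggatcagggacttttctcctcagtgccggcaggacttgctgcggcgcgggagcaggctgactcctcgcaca
Col9a2 promoter: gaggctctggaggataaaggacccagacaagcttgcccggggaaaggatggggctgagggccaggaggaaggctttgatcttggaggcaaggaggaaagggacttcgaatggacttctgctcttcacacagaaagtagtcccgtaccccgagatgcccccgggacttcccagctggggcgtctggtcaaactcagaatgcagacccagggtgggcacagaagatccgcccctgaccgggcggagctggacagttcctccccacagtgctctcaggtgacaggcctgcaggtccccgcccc

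Genes that modify, process or bind collagens were counted from lists. Of 18 genes for collagen modification, folding and export tested in FCS/LIF, 4 were called in −E−N against +E+N cells, all higher, and 2 of 17 in 2i/LIF, where Serpinh1 was higher and Colgalt1 lower. Serpinh1, the collagen chaperone HSP47, rose from between 31.6 and 46.7 TPM to between 90.6 and 122 TPM in FCS/LIF (log2 fold change 1.29 ± 0.22) and from between 60.1 and 94.2 to between 225 and 251 TPM in 2i/LIF (1.65 ± 0.13). Its −E−N libraries were above its +E+N libraries in both media.

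Of 13 tested genes for processing and cross-linking outside the cell, 9 were called in FCS/LIF, 7 higher and 2 lower, the largest changes being those of the cross-linking enzyme Lox (log2 fold change 4.01) and the protease Tll1 (3.09). In 2i/LIF, 4 of 9 were called, 1 higher (Pxdn, which cross-links type IV collagen, 2.39) and 3 lower. Of the basement membrane partners, 9 of 15 were called in FCS/LIF, 8 higher and Lama1 lower (−0.98), and 7 of 14 in 2i/LIF, 3 higher and 4 lower, with Lama1 at −4.85 and the linker protein Nid1 at −2.32. Collagen receptors gave 3 of 5 called in FCS/LIF and 4 of 5 in 2i/LIF, and the receptor kinase Ddr2 was lower in both (−2.85 and −6.36). Against the 18.8% and 18.6% of all genes called, these lists are described by their counts only.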

How the data were processed

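RNA-seq libraries were stranded, polyA-selected and paired-end. The authors mapped reads to mm10 with STAR and quantified genes with RSEM, and the versions and annotation release are not given in the sources used here. They deposited estimated counts as whole numbers and TPM per gene and library, both used here as deposited. All 92 spike-in records were 0 and were left out. Counts were normalized by TMM and tested within each medium with edgeR (version 4.0.16, R 4.3.3) in a quasi-likelihood fit over the 4 states, for genes reaching 20 counts in each replicate of at least 1 group. The comparison of media used all 20 libraries. Calls needed a Benjamini-Hochberg adjusted p under 0.01 over all genes tested and a fold change above 1.5, except the interaction and the difference between media, which had no fold limit. Alternatives were DESeq2 (1.42.0), its size factors in edgeR, no filter, a replicate block, limma (3.58.1) on log2(TPM + 1) or log2(TPM + 0.1), only the states compared, and leaving out each library. Summaries used pandas (2.3.3) and scipy (1.17.1). The fit was tested on simulated data.

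Deviations from group means correlated between same-numbered libraries of +E+N and −E (r 0.187 to 0.483), +E+N and −N (0.170 to 0.572) and −N and −E−N (0.155 to 0.450) in 2i/LIF, so the numbers were taken to pair these. For +E+N and −E−N number 2 gave −0.0126, and FCS/LIF has 2 pairs only, so neither was taken as paired.

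Members with a mean of at least 5 TPM in a group or called against +E+N are named with values. Others named in the comparison of media, under the replicate block or by promoter sequence were chosen after their values were seen. The collagens, their classes and all gene lists were chosen with earlier results of these data known. Coordinates are from GENCODE vM21 and promoter windows from RefSeq. The motif AAGGCCA, and the medium comparisons beyond +E+N and the −E−N response, were added after seeing the data.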

Additional observations from a re-analysis of the deposited data

Results flagged for a closer look

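The −E−N response differed between media, by edgeR's quasi-likelihood test of the difference itself, for 4 collagens. On the log2 scale, FCS/LIF minus 2i/LIF, it differed by 1.16 for Col4a1 (1.31 in FCS/LIF and 0.18 in 2i/LIF), by 2.91 for Col1a1 (1.46 and −1.42), by 2.37 for Col9a2 (−1.05 and −3.39) and by −4.51 for Col12a1 (1.20 and 5.68, the latter fitted on 1 count in the 3 +E+N libraries in 2i/LIF). The medium cannot be told apart from the batch. Groups of 2 or 3 libraries are too small for a test of outlying libraries.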

How the results depend on the processing

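Counts below are collagens called and are given beside those of the report. The share of all genes called moved with the setting too. With the replicate block in 2i/LIF it went from 1.55% to 4.15% for −E and from 3.65% to 7.77% for −N. For −E−N against −N it went from 6.76% to 11.3%. Such shares are not given for the other settings, so a changed count is not read as a result about collagens. Without the filter on low counts, −E gave 7 (instead of 2), −N 1 (0), −E−N against −N 17 (11) and the interaction 2 (0) in FCS/LIF; −E gave 1 (0), −N 4 (1), −E−N 10 (6), −E−N against −N 5 (3) and the interaction 1 (0) in 2i/LIF, and the difference of the −E−N response between media 7 (4). The median log2 fold change of other collagens in FCS/LIF was then 0.24 (0.37) and that of basement membrane collagens in 2i/LIF 1.31 (0.66). With the replicate block, −E gave 5 and −N 1 in FCS/LIF, −E 2, −N 6, −E−N 10 and −E−N against −N 6 in 2i/LIF, and the difference between media 10; it moved no other count by over 1.5 times. No block could be fitted for +E+N between media. DESeq2 gave 1 for −E, 4 for −N and 1 for the interaction in 2i/LIF. With limma on log2(TPM + 1), −E gave 1, −E−N 9 (16) and −E−N against −N 2 in FCS/LIF, −N 0, −E−N 3 and −E−N against −N 0 in 2i/LIF, +E+N between media 8 (18) and the difference between media 10, where Col12a1 turned to 0.041 on the log2 scale. With log2(TPM + 0.1), −E gave 1 and −E−N against −N 2 in FCS/LIF, and −N 0 and −E−N against −N 1 in 2i/LIF. With only the 2 states compared, −E gave 1 in FCS/LIF, and −N and −E−N against −N 0 each in 2i/LIF. Summed CPM in place of TPM gave a fibrillar ratio of 1.25 (1.22) in 2i/LIF. Leaving out 1 library at a time gave 1 to 3 for −E, 12 to 18 for −E−N and 2 to 11 for −E−N against −N in FCS/LIF; 0 to 2 for −N, 4 to 7 for −E−N and 0 to 3 for −E−N against −N in 2i/LIF; 15 to 19 for +E+N between media and 1 to 5 for the difference between media. Class medians then ranged from 1.13 to 1.63, 1.08 to 1.32 and 0.15 to 0.49 (basement membrane, fibrillar, other) in FCS/LIF and from 0.52 to 0.79, 0.32 to 0.50 and 0.31 to 0.66 in 2i/LIF. Ratios of summed TPM ranged from 1.71 to 2.02, 1.99 to 2.71 and 1.17 to 1.29 in FCS/LIF and from 1.75 to 2.31, 1.17 to 1.26 and 0.565 to 0.719 in 2i/LIF. A library left alone in its group is assumed to vary like the others. The causes were not tested. In −E−N cells, 10 of the 16 calls in FCS/LIF and 4 of the 6 in 2i/LIF were kept without each library in turn.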
